A study of Mus musculus with 4 samples.

Results

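Spp1, Gpnmb, Trem2, Fabp5, Cd9, Cd63, Apoe, Lpl and Mmp12 are genes of lipid-handling macrophages, and their RNA was followed here across injured muscle that goes on to form bone. They are 9 of the 32285 features in the tables, matched by gene symbol, and all 9 had a row. Not all of them followed macrophage RNA in these sections: Lpl did not on days 3 and 7. Across spots at day 3 the relation was weak for Cd63 and Cd9. Mmp12 was seen in few spots, and its relation to macrophage RNA depended on the measure and the day. They were chosen as a set because Spp1 and Trem2 were among the largest increases at day 3, so their day 3 ratio to day 0 is given as a description and supports nothing. All sections came from tibial muscle of C57BL/6 mice aged 6 to 8 weeks that carry the Nse-Bmp4 transgene, in which a neuron-specific enolase promoter drives Bmp4, and the uninjured controls carry it too. The groups were uninjured muscle (day 0) and muscle taken 1, 3 and 7 days after injury with cardiotoxin, a snake toxin that destroys myofibres. There was 1 fresh frozen section per day, and the labels speak of 3 tibial muscles mixed per group without saying whether a section holds 1 muscle or several. With 1 section per day there is no spread between animals, and no comparison has a p-value. Each interval is at 95% and covers counting error only.

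Macrophages that clear dying cells take up large amounts of membrane lipid and cholesterol. In tissues from fat to brain and arterial wall they are known to switch on a shared set of genes for sensing, binding and exporting lipid, and for digesting matrix. TREM2 is a surface receptor for lipids and lipoproteins that signals through the adaptor TYROBP, APOE is a carrier of lipids and a TREM2 ligand, and SPP1 (osteopontin) is a secreted matrix protein that binds integrins and CD44 and is also made by bone cells. Several of these genes are used by other cells too, such as LPL by fat and muscle.

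The sections held 2107 to 3032 spots and 16777832 to 56113066 UMIs (unique molecular identifiers, 1 per captured RNA molecule), lowest at day 1. The median spot had 6322 UMIs at day 1, against 12119.5 to 21029 in the other sections. A spot covers several cells, and 1341 of the 4078 distinct spot barcodes occurred in all 4 sections, since every array uses the same barcodes. Levels are CPM, UMIs per 1000000 UMIs of the section, and 4 values in a row run through days 0, 1, 3 and 7 in that order. In such data fewer cells of a type and less RNA per cell cannot be told apart. The labelled tissue showed its own markers: adult myofibre genes made up 24.3% of all UMIs at day 0 and 8.04% at day 3. The monocyte/macrophage list (15 genes such as Cd68, Csf1r and Lyz2, none of them a member) had 464, 1753, 8307 and 2162 CPM. TMM factors, which scale to the bulk of genes, moved all log2 ratios to day 0 by -0.21, -0.55 and -0.61 on the 3 injured days.

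The upstream sequences of the genes that were near 0 in uninjured muscle are shown because these are the genes that came on with injury. They are the 250 bases before the first annotated start in RefSeq, in GRCm38.p6, the assembly of the mm10 build named for the files, and all lie on the plus strand, at chr5:104434861-104435110 for Spp1, chr17:48346151-48346400 for Trem2, chr6:49036268-49036517 for Gpnmb and chr9:7344147-7344396 for Mmp12. Capitals mark GAGGAA, the core bound by the myeloid factor PU.1, and TGANTCA, the AP-1 motif, on either strand.
Spp1: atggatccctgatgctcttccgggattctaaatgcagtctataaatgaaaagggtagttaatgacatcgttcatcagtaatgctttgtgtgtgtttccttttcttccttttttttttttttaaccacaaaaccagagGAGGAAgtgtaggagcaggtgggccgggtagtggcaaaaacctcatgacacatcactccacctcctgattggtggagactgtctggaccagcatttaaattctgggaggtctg
Trem2: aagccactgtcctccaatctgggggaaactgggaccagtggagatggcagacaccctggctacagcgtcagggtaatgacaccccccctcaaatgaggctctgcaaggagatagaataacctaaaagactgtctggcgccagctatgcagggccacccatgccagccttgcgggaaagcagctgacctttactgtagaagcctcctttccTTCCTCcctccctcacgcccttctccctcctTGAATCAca
Gpnmb: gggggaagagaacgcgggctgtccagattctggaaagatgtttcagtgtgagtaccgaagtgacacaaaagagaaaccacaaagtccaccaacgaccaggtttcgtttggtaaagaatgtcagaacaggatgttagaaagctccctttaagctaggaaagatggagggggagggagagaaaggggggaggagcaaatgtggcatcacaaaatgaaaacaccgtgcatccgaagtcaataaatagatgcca
Mmp12: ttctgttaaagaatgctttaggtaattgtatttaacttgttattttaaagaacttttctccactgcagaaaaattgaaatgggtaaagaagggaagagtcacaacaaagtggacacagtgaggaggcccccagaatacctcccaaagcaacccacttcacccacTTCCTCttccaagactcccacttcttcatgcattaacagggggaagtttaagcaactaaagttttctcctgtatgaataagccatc
In these windows GAGGAA began 113 bases before the start of Spp1 (plus strand), 40 bases before that of Trem2 and 86 bases before that of Mmp12 (both minus strand). TGANTCA began 9 bases before the start of Trem2. Of 32851 RefSeq promoter windows of this length, 23.3% held GAGGAA and 6.75% held TGANTCA, so the first is a common string. The E-box CACGTG (6.02% of windows) and the M-box TCATGTG (3.25%) of the MiT/TFE family of lysosomal regulators were searched on both strands, and neither was in the 4 windows shown. The letters alone describe the sequence and show no binding. The 9 genes lie at chr5:104435111-104441053 (Spp1), chr6:49036518-49058182 (Gpnmb), chr17:48346401-48352276 (Trem2), chr3:10012585-10016610 (Fabp5), chr6:125460266-125494760 (Cd9), chr10:128896231-128912822 (Cd63), chr7:19696244-19701310 (Apoe), chr8:68880555-68906932 (Lpl) and chr9:7344397-7360461 (Mmp12). The table held windows for 7 of the 9 genes, the others being Fabp5 and Lpl.

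Spp1, the secreted ligand of the set, was almost absent before injury and then changed more than any other of the 9. Its UMIs numbered 11, 2372, 54359 and 4055. As levels these were 0.251 CPM (0.125 to 0.449), 141 (136 to 147), 969 (961 to 977) and 96.9 (94.0 to 99.96). The 4 sections were all distinct, in the order day 3, day 1, day 7, day 0. The ratio to the uninjured section was 564 (315 to 1131) after 1 day, 3864 (2159 to 7740) after 3 and 387 (216 to 775) after 7. Among the 2986 features with at least 50 CPM at day 3 or day 0, its day 3 ratio ranked 1, which is the value the set was selected on.

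Gpnmb and Trem2, the cell surface members, were also highest at day 3. Unlike Spp1 they stood higher at day 7 than at day 1, though for Trem2 not with TMM factors. Gpnmb encodes a membrane glycoprotein of lysosomes and the cell surface. It had 79 UMIs (1.80 CPM), then 629 (37.5 CPM), 17690 (315 CPM) and 3178 (76.0 CPM). Trem2 had 38 UMIs (0.866 CPM), 658 (39.2 CPM), 10919 (195 CPM) and 2120 (50.7 CPM). For both, day 3 was highest, then day 7, day 1 and day 0, and no neighbours in that order lay within counting error. With TMM factors Gpnmb had 41.1 CPM at day 1 and 63.2 at day 7, but Trem2 had 43.0 and 42.1. The order of these 2 days thus depended on scaling for Trem2. Gpnmb was 175-fold (140 to 221) and Trem2 225-fold (164 to 318) above day 0 at day 3, ranks 8 and 3. From day 3 to day 7 Gpnmb went to 0.241 (0.232 to 0.25) and Trem2 to 0.260 (0.248 to 0.273) of its level, against 0.10 (0.0969 to 0.103) for Spp1.

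The lipid carriers split. Apoe had 256, 513, 5886 and 2120 CPM, and each day differed from the next beyond counting error. It therefore kept 0.360 (0.358 to 0.363) of its day 3 level at day 7, and stood 8.29-fold (8.13 to 8.46) above day 0. Fabp5, a fatty acid binding protein of the cytosol, went from 77.7 CPM to 169, 672 and 169. Its days 1 and 7 did not differ beyond counting error with section totals, but had 185 and 140 CPM with TMM factors. Lpl, the lipase that releases fatty acids from circulating triglyceride, ran the other way. It had 236 CPM (232 to 241), 174 (167 to 180), 167 (164 to 170) and 197 (192 to 201). Lpl was thus highest before injury, its days 1 and 3 did not differ beyond counting error, and at day 3 it was at 0.707 (0.687 to 0.727) of day 0. With TMM factors that log2 ratio was -1.05, and Lpl had 190 CPM at day 1 and 145 at day 3.

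Among the tetraspanins, membrane proteins that organise other surface proteins and mark vesicles, Cd63 rose early and Cd9 late. Cd63 had 138, 654, 871 and 362 CPM. Its day 1 level was already 4.73-fold (4.58 to 4.88) that of day 0, and from day 1 to day 3 it grew only 1.33-fold (1.30 to 1.36). Cd9 had 48.6, 47.5, 85.5 and 99.8 CPM. Days 0 and 1 did not differ beyond counting error for Cd9 (61.6 and 52.1 CPM with TMM factors), and day 7 was its highest. Mmp12, the macrophage elastase, was the other gene that peaked at day 7. No UMI of it was found in 43871586 at day 0, which allows up to 0.0841 CPM, and it then had 18 UMIs (1.07 CPM), 388 (6.91 CPM) and 364 (8.70 CPM). With 3 UMIs, the floor, entered for the day 0 section, day 3 was 101-fold and day 7 127-fold above it. The exact lower limits of these ratios were 81.8 and 103. From day 3 to day 7 Mmp12 rose 1.26-fold (1.09 to 1.46) while Spp1 fell. That rise rested on few spots: Mmp12 had UMIs in 246 spots at day 3 and in 107 at day 7. Without the 1% of spots richest in Spp1 it had 6.28 CPM at day 3 and 2.81 at day 7, the reverse order.

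**Figure D1:**
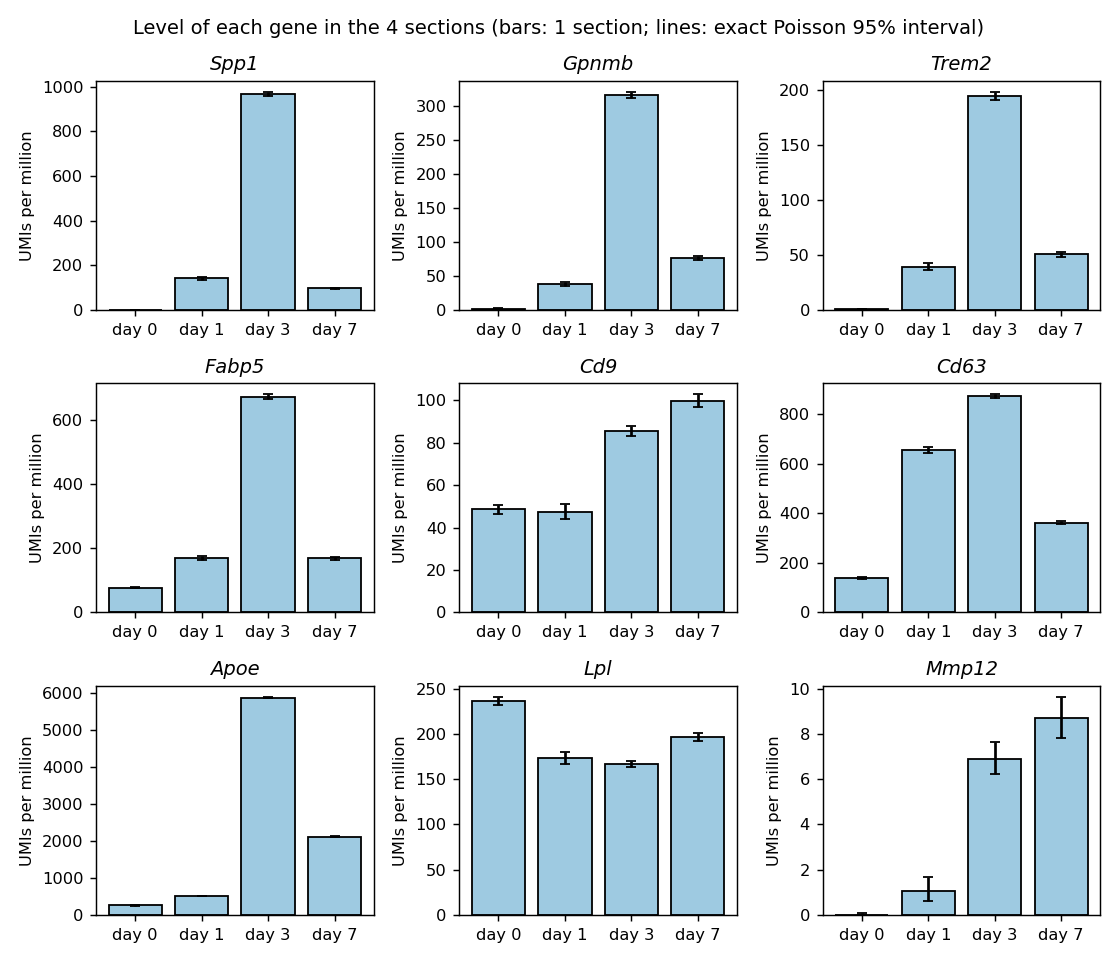
CPM in each of the 4 sections for the 9 genes, with exact Poisson 95% intervals, 1 section per bar and a scale of its own for each gene. Spp1, Gpnmb, Trem2, Fabp5, Cd63 and Apoe were highest at day 3, Cd9 and Mmp12 at day 7 and Lpl at day 0.

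Counted together, 6 of 8, 7 of 9 and 8 of 9 genes were at least 2-fold above day 0 on days 1, 3 and 7, where 16.5%, 32.5% and 31.3% of all features with at least 20 UMIs passed the same bar. Mmp12 was not counted at day 1, since its 18 UMIs there were under that minimum, and entered the other days with its day 0 value at the floor. The median log2 ratio to day 0 over the 9, Mmp12 at its floor included, was 2.24, 4.52 and 3.05, and over all features it was 0.15, 0.58 and 0.65. The day 3 figures describe how the set was selected and nothing is read from them, and the 3 comparisons share the day 0 section. With TMM factors 5 genes passed at day 1, Mmp12 among them, and 5 at day 7: the log2 ratios of Fabp5 (0.91) and Apoe (0.80) at day 1, and those of Fabp5 (0.51), Cd9 (0.43) and Cd63 (0.78) at day 7, were then under 1. From day 1 to day 3, 6 of the 9 rose at least 2-fold (19.4% of all features). From day 3 to day 7, 6 of the 9 fell at least 2-fold (11.1% of all features), namely Spp1, Gpnmb, Trem2, Fabp5, Cd63 and Apoe. Both counts use the day 3 section on which the set was selected, so nothing is read from them either.

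Set against macrophage RNA of the same section, the genes parted into those that gained and those that lost. Per 100 UMIs of the monocyte/macrophage list, Spp1 had 0.0540, 8.07, 11.7 and 4.48 UMIs. Gpnmb had 0.388, 2.14, 3.80 and 3.51. Trem2 had 0.187 (0.132 to 0.256), 2.24 (2.07 to 2.42), 2.34 (2.30 to 2.39) and 2.34 (2.24 to 2.45), so with this list the 3 injured sections did not differ beyond counting error. With other lists they did: Trem2 had 2.90, 3.35 and 3.83 per 100 UMIs on days 1, 3 and 7 without the 3 C1q genes, and 17.1, 30.5 and 28.8 against Cd68, Adgre1 and Csf1r alone. The order of days 3 and 7 for Gpnmb depended on the list as well. It had 5.43 and 5.74 on these days without the 3 C1q genes, and 49.4 and 43.2 against Cd68, Adgre1 and Csf1r alone. Mmp12 had 0 before injury and 0.0612, 0.0832 and 0.402 (0.362 to 0.446) after it. Spp1 was thus highest against macrophage RNA at day 3 and Mmp12 at day 7. Apoe had 55.1, 29.3, 70.9 and 98.1 UMIs per 100, highest at day 7. Fabp5 went from 16.7 to 9.63, 8.09 and 7.81, and Cd9 from 10.5 to 2.71, 1.03 and 4.61. With each list Fabp5 was below day 0, but the order of its injured days varied. It went from 29.7 to 12.5, 11.6 and 12.8 without the 3 C1q genes. Against Cd68, Adgre1 and Csf1r alone it went from 179 to 73.8, 105 and 95.9. Lpl dropped most against macrophage RNA, from 50.9 to 9.90, 2.01 and 9.10, and Cd63 had 29.8, 37.3, 10.5 and 16.8. The day 1 rise of Cd63 turned into a fall with the other lists. It went from 53.0 to 48.3 without the 3 C1q genes, and from 319 to 286 against Cd68, Adgre1 and Csf1r alone. The median log2 ratio to day 0 over the 9 was 0.32, 0.36 and 0.83 on the injured days. That median depended on the marker list at day 1, where it was -0.13 without the 3 C1q genes and -0.16 with Cd68, Adgre1 and Csf1r alone.

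**Figure D2:**
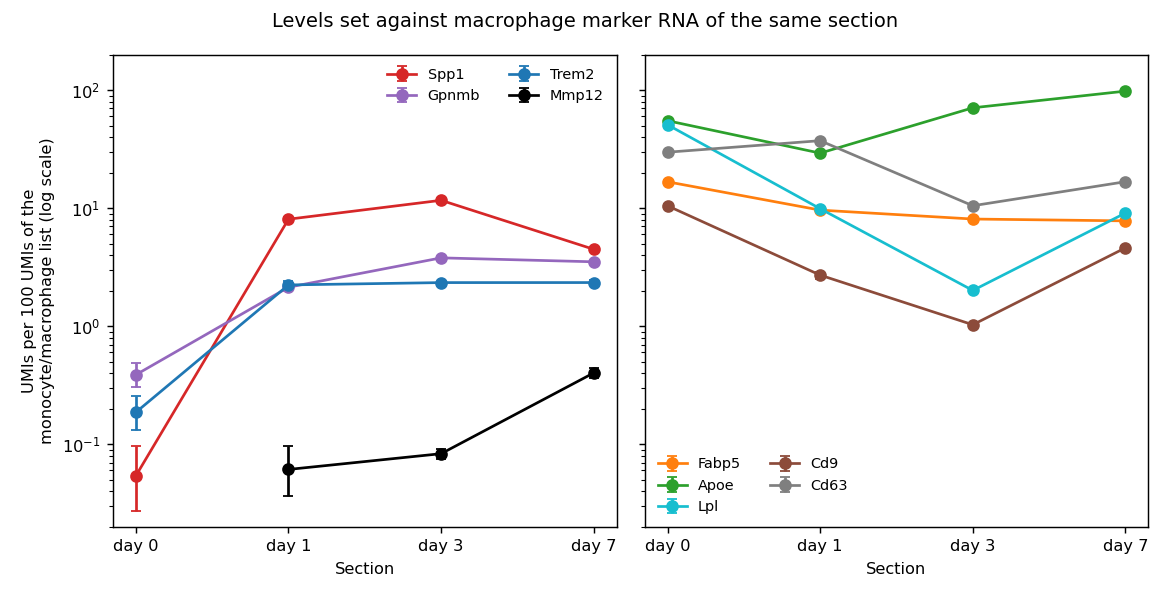
UMIs of each gene per 100 UMIs of the monocyte/macrophage list in the same section, on a log scale with exact 95% intervals; heights are compared along a line and not between genes, and Mmp12 is not drawn at day 0, where it had 0 UMIs. Trem2 lay between 2.24 and 2.34 in the 3 injured sections with this list, though not with the other marker lists tried, while Cd9 and Lpl were lowest at day 3.

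Spp1, Gpnmb and Trem2 were found in a larger share of spots at day 3 than at day 7. The set was selected on the day 3 increase of Spp1 and Trem2, so nothing is read from this contrast. To compare sections of unequal depth, each spot was thinned to 2000 UMIs, which left 2090, 2154, 3020 and 2948 spots. At day 1 this left out 513 of 2667 spots. Most of the region with the highest day 1 Spp1 (719 CPM, 400 spots with a median of 932.5 UMIs) was among them. The same spots are missing from the comparisons of list-rich spots and the rank correlations below. Spp1 was then seen in 0.0407%, 17.3%, 46.0% (44.2 to 47.8) and 7.64% (6.70 to 8.65) of spots. Trem2 was seen in 0.203%, 7.47%, 24.3% and 6.23%, and Gpnmb in 0.330%, 6.75%, 30.7% and 6.19%. Apoe was seen in 33.8%, 51.4%, 95.8% and 83.6%, so at day 3 nearly every spot held it. The values were 13.5%, 25.5%, 48.6% and 22.2% for Fabp5, and 23.9%, 68.8%, 75.1% and 43.1% for Cd63. Lpl was in 34.7%, 25.6%, 26.4% and 30.5%, and Cd9 in 8.34%, 8.97%, 13.1% and 15.1%, the only member besides Lpl whose share was not highest at day 3. Without thinning Spp1 was seen in 0.475%, 34.2%, 85.5% and 29.6% of spots. Gpnmb was then seen in 3.32%, 15.9%, 74.8% and 26.0%, and Trem2 in 1.76%, 19.3%, 70.3% and 28.8%. Mmp12 was seen in 0 of 2090 thinned spots at day 0, which allows up to 0.176%, and in 0.262%, 1.12% and 0.700% afterwards.

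At day 7 a handful of spots held most of the Spp1, Gpnmb and Mmp12. The 14 richest of 3032 spots held 50.1% of all Spp1 UMIs, and the richest single spot had 392, with a median of 0 per spot. For Mmp12, 8 spots held 52.2%, and for Gpnmb 26 spots were enough to reach 50%. At day 3 the 50% mark for Spp1 took 181 of 3029 spots, where the richest spot had 684 UMIs and the median spot 4. Trem2 took 348 spots at day 3 and 120 at day 7, and Apoe 364 and 263. Lpl was about as spread on both days, with 417 and 431 spots. The tenth of spots richest in each gene held 63.9% of Spp1 at day 3 and 84.3% at day 7, and 55.2% and 84.8% of Gpnmb.

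**Figure D3:**
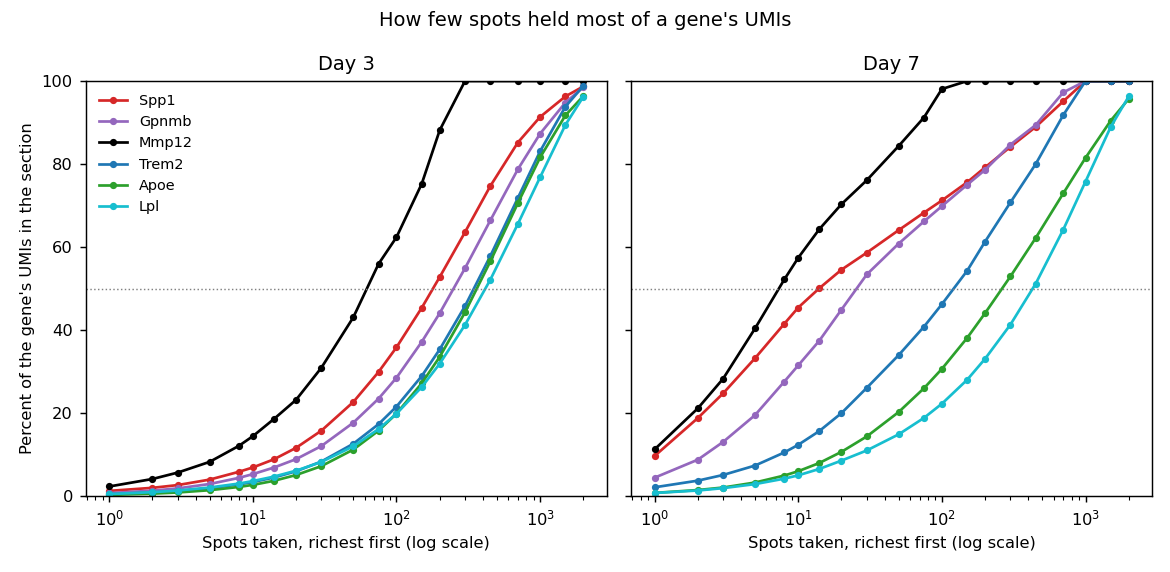
Percent of a gene's UMIs held by its richest spots at days 3 and 7, against the number of spots taken (log scale), for 6 of the genes. At day 7 the Spp1 curve reached 50.1% at 14 spots, and the Lpl curve lay far to the right on both days.

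The spots that held this RNA differed between days 3 and 7. The 30 spots of the day 7 section (1% of it) with the highest Spp1 share were singled out after their values were seen, and their Spp1 is not a finding. They held 55.5% of the Spp1 of the section, 42.4% of the Gpnmb and 68.4% of the Mmp12, and 18% of the Trem2. Of these 30 spots, 18 were also among the top 30 for Gpnmb, 15 for Mmp12 and 14 for Trem2, while at day 3 the matching numbers were 10, 3 and 1. The monocyte/macrophage list stood at 11814 CPM in them and 1947 in the rest (13 of 15 genes at least 2-fold higher, against 15.6% of all features). All 8 regenerating muscle genes were higher there, between 2.17-fold (Myod1) and 10.8-fold (Myl4), and the list had 6926 CPM against 718. At day 3 the corresponding 30 spots had less of that list, 393 CPM against 940, and 7 of its 8 genes were at least 2-fold lower, against 19.8% of all features. Itgax, an integrin of dendritic cells and some macrophages, had 192 CPM against 6.48 at day 7 (whole dendritic cell list 200.4 against 20.2), but no other of the 6 genes of that list with enough UMIs was 2-fold higher, and Xcr1 and Siglech had 0 UMIs in these spots. The osteoclast list had 1252 CPM against 189 (4 of 7 genes at least 2-fold higher): Atp6v0d2 (185 CPM against 4.47), Acp5 (400 against 23.3) and Ctsk (623 against 122) were among the higher ones, while Calcr and Ocstamp had 0 UMIs in these spots. Resident macrophage genes were not higher in any of 8 cases, with 169 CPM against 312. The Schwann cell list also moved with these spots, at 1240 CPM against 222, with 6 of 7 genes at least 2-fold higher. The neutrophil list had 120.5 CPM against 17.5 (3 of 4 genes), with S100a9, Ly6g, Cxcr2, Retnlg and Mmp8 at 0. The part of these other cell markers in the result was not tested. Without the top 1% of spots the day 7 level of Spp1 was 44.1 CPM, that of Gpnmb 44.7, that of Mmp12 2.81 and that of Trem2 42.5.

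Regions were groups of spots of similar RNA, found without the members or list genes and named by their leading genes. At day 3 a region of 700 spots (23.1% of the section), led by Rhov, Npy, Xcl1, Spp1, Mmp12 and Atp6v0d2, held the highest level of every member but Lpl, and the highest monocyte/macrophage level (15512 CPM). Spp1 had 2571 CPM there and 389 in the next region, Gpnmb 730 and 204, Trem2 390 and 159, Fabp5 1550 and 401. Mmp12 had 18.3 CPM there and 2.92 in the next. Cd63 had 491 to 1142 CPM over the 7 regions. Lpl was highest in a region of 74 spots led by Wfdc21, Cfd (a secreted product of fat cells) and Hp, with 300.2 CPM. With finer regions (resolution 1) this changed: Lpl was then highest, at 424 CPM, in the same region of 237 spots as Spp1, Gpnmb, Trem2, Fabp5, Cd9 and Mmp12, while Apoe and Cd63 were highest in regions of their own.

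At day 7 the highest levels lay in several regions. Spp1 (378 CPM, 364 to 392), Gpnmb (310), Trem2 (137), Apoe (4664) and Mmp12 (41.5) were highest in a region of 260 spots led by Mmp12, Iglc2, Atp6v0d2, Myh8, Gpnmb, Myh3 and Itgax, in which the regenerating muscle list (3183 CPM) and the monocyte/macrophage list (4355 CPM) were also the highest of the 9 regions. This region held 69.9% of the Spp1 UMIs and 85.7% of those of Mmp12. Cd63 (687 CPM) and Fabp5 (342) were highest in a region of 278 spots led by cartilage genes, among them Meltf, Matn1, Col10a1 and Col9a1, where Lpl was lowest (59.3) and Spp1 had 83.7. Cd9 was highest (201) in a region of 262 spots led by Wfdc21, Cyp2e1 and Nnat, and Lpl (370) in one led by the slow muscle genes Myh7, Myl2 and Myl3.

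**Figure D4:**
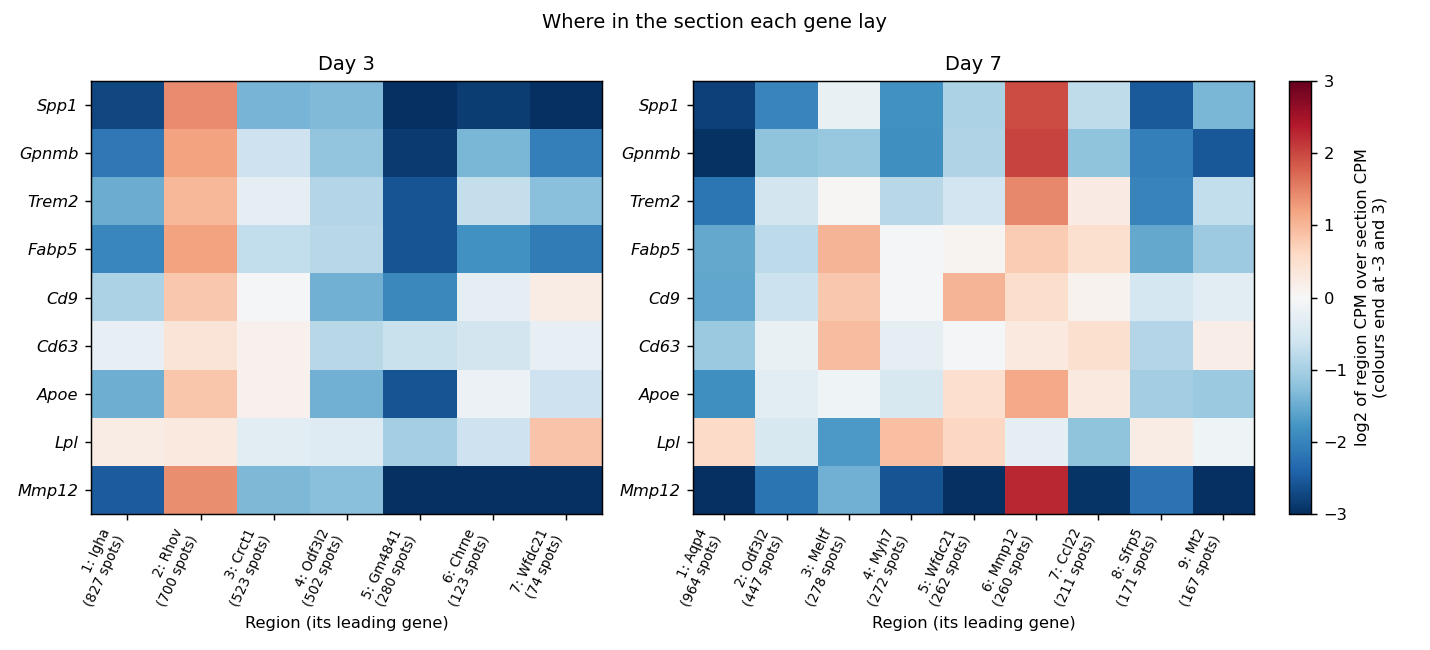
Log2 of each gene's CPM in a region over its CPM in the whole section at days 3 and 7, with each region labelled by its leading gene and number of spots, and colours ending at -3 and 3. At day 3 the region led by Rhov stood out for 8 of the 9 genes, and at day 7 Cd63 and Fabp5 were highest in the region led by Meltf while Spp1 and Mmp12 were highest in the one led by Mmp12.

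Before injury and at day 1 the picture was different again. At day 0 a region of 81 spots led by Lep, Nnat and Pck1, with the most adipocyte RNA of the section, was highest for Apoe (1506 CPM), Lpl (782) and Fabp5 (182). Cd9 was highest (107 CPM, 92.1 to 123) in a region of 65 spots led by Crym, Rps6ka1 and Kcne1l. Its interval there overlapped that of the next region (90.2 CPM, 82.0 to 99.1). The region led by Crym also had the most Schwann cell RNA (1266 CPM). Cd63 (189 CPM), Gpnmb (7.48, from 9 UMIs) and Trem2 (4.99, from 6 UMIs) were also highest in the region led by Lep, but within counting error of the next region. At day 1 Spp1 had 719 CPM in a region of 400 shallow spots (median 932.5 UMIs) with Thbs1, Ppbp and Arg1 among its leading genes, and 457 CPM in a region of 442 spots led by Slfn4, Clec10a and Ifit1. In the other 5 regions it had 23.3 to 99.7 CPM. Lpl was highest at day 1 (420 CPM) in a region of 300 spots led by Inmt, Pck1 and Cyp2e1, and Cd9 (248) in one of 71 spots led by P2rx1, Cytl1 and Cnn1. Cd63 was highest (903 CPM) in a region led by Plcxd2, Gadd45a and Gm49774.

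Within each section, spots were then ranked by their share of the monocyte/macrophage list, and the top 10% was set against the other spots of at least 2000 UMIs. In these macrophage-rich spots Spp1 was 9.0-fold (8.21 to 9.87), 3.31-fold (3.26 to 3.37) and 11.9-fold (11.2 to 12.7) higher on days 1, 3 and 7. Gpnmb was 3.40-fold, 4.01-fold and 13.3-fold (12.3 to 14.4) higher on the same days, and Trem2 4.80-fold, 3.07-fold and 5.81-fold. Apoe was 4.44-fold (4.26 to 4.61) higher already at day 0, then 5.2-fold, 3.06-fold and 3.87-fold. Cd63 changed little with macrophage RNA, between 1.36-fold and 1.73-fold. Mmp12 was 2.02-fold (1.60 to 2.54) and 27.2-fold (20.7 to 36.3) higher on days 3 and 7, with 82.6% of its day 7 UMIs in these spots. Lpl was 3.19-fold (2.89 to 3.51) higher at day 1 but at 0.930 (0.878 to 0.985) and 1.03 (0.971 to 1.10) of the other spots on days 3 and 7. Of the members with enough UMIs, 3 of 7, 6 of 8, 6 of 9 and 7 of 9 were at least 2-fold higher in the macrophage-rich spots, against 9.19%, 26.5%, 14.7% and 10.9% of all features. Mmp12 and Spp1 were not counted at day 0, nor Mmp12 at day 1, where 9 of its few UMIs lay in these spots.

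Other marker lists separated the genes further. In spots rich in the regenerating muscle list Spp1 was 0.581 (0.565 to 0.598) of its level in the other spots at day 3 and 11.1-fold (10.4 to 11.9) at day 7. Gpnmb was at 1.01 (0.969 to 1.05) and 12.9-fold (11.9 to 13.9), and Trem2 at 1.00 (0.95 to 1.05) and 4.42-fold (4.06 to 4.82). In spots rich in resident macrophage genes such as Lyve1 and Folr2 the order was turned: Spp1 was 3.53-fold (3.46 to 3.60) higher at day 3 and at 0.369 (0.302 to 0.447) at day 7, and Trem2 1.89-fold higher and at 0.868 (0.719 to 1.04). Osteoclast list-rich spots at day 7 had 10.7-fold more Spp1, 7.80-fold more Gpnmb and 2.15-fold more Cd63. In spots rich in chondrogenic genes at day 7, Fabp5 was 1.99-fold (1.87 to 2.11), Cd63 1.77-fold (1.70 to 1.85) and Cd9 1.60-fold (1.47 to 1.74) higher, whereas Gpnmb was at 0.386, Lpl at 0.306 and Mmp12 at 0.228. Lpl stood 4.89-fold (4.48 to 5.33) higher in adipocyte-rich spots at day 1 and 2.16-fold (2.04 to 2.28) at day 0.

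**Figure D5:**
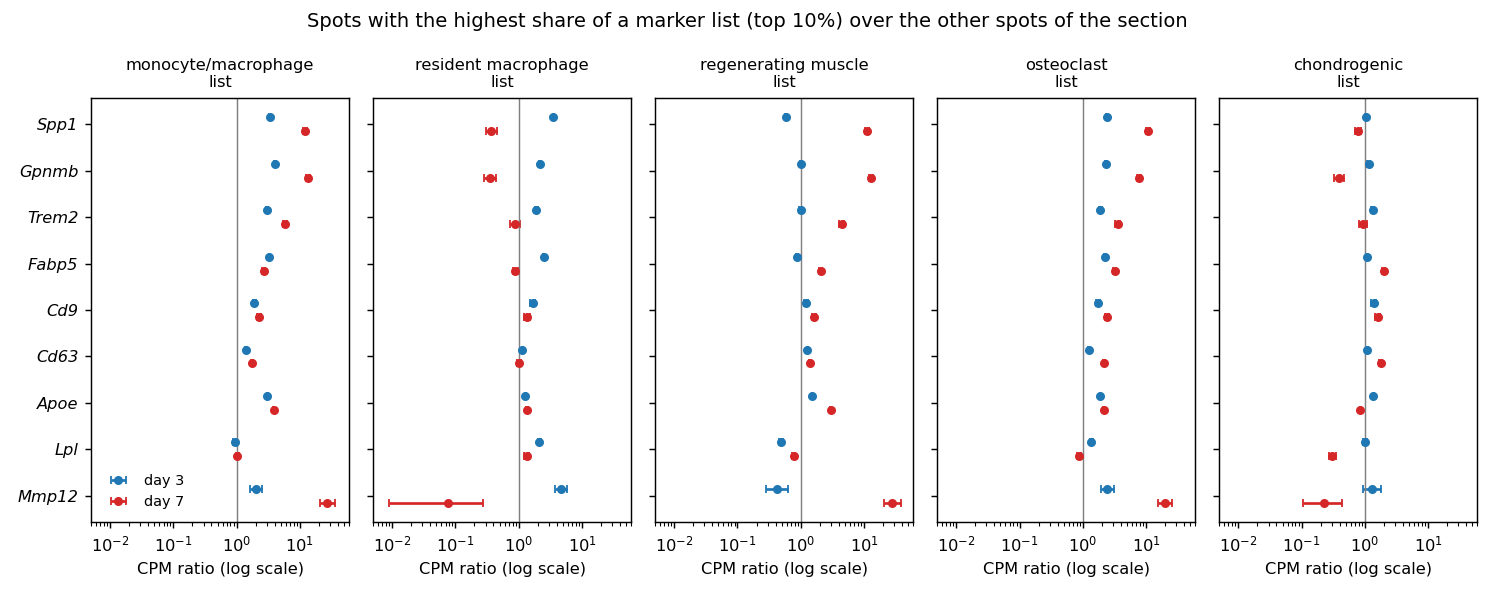
CPM in the 10% of spots richest in a marker list over CPM in the other spots of the section (log scale, 95% intervals), at day 3 (blue) and day 7 (red), for 5 lists. For the regenerating muscle list Spp1 lay at 0.581 at day 3 and 11.1 at day 7, and for the resident macrophage list at 3.53 and 0.369.

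Rank correlations with the monocyte/macrophage list were taken across spots thinned to 2000 UMIs. No test was made, since spots of 1 section share their library and depth. Spearman's rho at day 3 (n = 3020 spots) was 0.79 for Apoe, 0.54 for Spp1, 0.53 for Fabp5, 0.46 for Gpnmb, 0.37 for Trem2, 0.31 for Cd63, 0.20 for Cd9, 0.10 for Mmp12 and 0.056 for Lpl. Given the share of adult myofibre RNA, these were 0.45 for Apoe, 0.21 for Fabp5, 0.20 for Spp1, 0.18 for Gpnmb and 0.15 for Trem2. For Cd63 (0.041), Cd9 (0.019) and Mmp12 (0.018) little remained, and for Lpl the sign turned (-0.099). At day 7 (n = 2948) rho was 0.53 for Apoe, 0.16 for Fabp5, Gpnmb and Cd63, and 0.15 for Trem2. It was 0.13 for Spp1, 0.12 for Cd9, 0.081 for Mmp12 and -0.071 for Lpl. Spp1 and Gpnmb thus had a lower rho at day 7 than at day 3, but a higher ratio in macrophage-rich spots. The gene whose spots were most like those of Spp1 at day 3 was Ctsb, a lysosomal protease, with a Pearson's r of 0.63 over 3020 spots, followed by Lgals3 (0.59), Ftl1 (0.58), Psap (0.58) and Ctss (0.57). Ctsb also came first for Gpnmb (0.48), Trem2 (0.36) and Fabp5 (0.59) at day 3, and for Spp1 at day 1 (0.43). Apoe was most like Lyz2 at day 3 (0.74) and day 7 (0.47), and most like the fat gene Cfd at day 0 (0.38). At day 7 Cd63 (0.26) and Fabp5 (0.26) were most like Postn, a matrix gene of fibroblasts. Lpl followed Cfd at day 0 (0.23), Scd1 at day 1 (0.41), Ctsl at day 3 (0.17) and the fast myosin gene Myh2 at day 7 (0.19).

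Partners of these proteins were taken from lists of known receptors and adaptors, and their counts stand beside 16.5%, 32.5% and 31.3% of all features at least 2-fold above day 0 on days 1, 3 and 7, which several lists did not exceed by much on at least 1 day. All 7 genes of Trem2 signalling were at least 2-fold above day 0 at days 1, 3 and 7. All 7 were also at least 2-fold lower at day 7 than at day 3 (11.1% of all features). That fall uses the day 3 section on which the set was selected, so nothing is read from it. Tyrobp, the adaptor, had 18.7, 241, 771 and 116 CPM, and the kinase Syk 4.76, 14.5, 38.6 and 17.1. Of 10 receptors of Spp1 and Gpnmb, 2, 5 and 6 were at least 2-fold higher at days 1, 3 and 7. Cd44 had 16.9, 87.8, 150.2 and 57.2 CPM, whereas the integrin chain Itgb3, which pairs with Itgav on osteoclasts, had 2.28, 2.86, 1.80 and 9.16. Spp1 and Cd44 were found in the same thinned spot in 13.5% (12.3 to 14.8) of spots at day 3, 1.41 times the product of their separate shares, and in 1.10% (0.772 to 1.57) at day 7, 1.49 times. Apoe and Trem2 shared 23.9% of spots at day 3, 1.03 times the product.

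Genes that handle lipid moved in part. Of 18 genes for lipid uptake, storage and efflux, 8 and 9 were at least 2-fold above day 0 on days 1 and 3, and 7 of the 17 tested on day 7. The droplet coat gene Plin2 had 21.4, 194, 182 and 40.7 CPM. Of the cholesterol exporters, Abca1 (12.6, 10.8, 65.9 and 65 CPM) was above day 0 on days 3 and 7 only, and Abcg1 (4.26, 9.12, 32.4 and 19.3) on each injured day. Both were higher on days 3 and 7 than on day 1. Npc2, which moves cholesterol out of lysosomes, had 56.0, 188, 423 and 165. The muscle and fat genes Fabp3 (585, 392, 268 and 366 CPM) and Cd36 (194, 134, 159 and 145) were below day 0 on each injured day, as Lpl was. Of 12 cholesterol synthesis genes 1, 7 and 1 were at least 2-fold higher on days 1, 3 and 7. Among 12 lipoprotein and lipase partners, 3, 6 and 5 passed at days 1, 3 and 7: Pltp, a phospholipid transfer protein, had 31.6, 15.4, 196 and 114 CPM, Apoc2, the activator of LPL, 0.114, 20.03, 34.5 and 3.16, and Angptl4, its inhibitor, 11.3, 54.4, 141 and 12.2. Gpihbp1, which holds LPL on capillaries, had 114, 85.2, 47.1 and 68.1.

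Among other genes of the lipid-associated macrophage programme, 13 of 18 tested were at least 2-fold higher at day 1, 17 of 19 at day 3 and 13 of 19 at day 7. Lgals3, a lectin, had 8.98, 453, 845 and 198 CPM, and the lysosomal protease gene Ctss 9.85, 144, 1060 and 111. Tfec, a regulator of lysosomal genes in macrophages, had 0.182, 2.38, 5.13 and 2.20, while its relative Tfeb did not reach 2-fold (36.0, 45.6, 29.0 and 45.4). Of 8 other tetraspanins, 3, 4 and 3 passed. Cd53, a leukocyte tetraspanin, had 3.53, 40.8, 104 and 25.05 CPM, and the widely used Cd81 249.7, 173, 233 and 291. Of the matrix protease partners of Mmp12, 4 of 10 passed at day 1 (and 3 were at least 2-fold lower), 6 of 11 at day 3 and 9 of 11 at day 7. Its substrate gene Eln, elastin, had 145, 20.6, 35.2 and 266 CPM and was highest at day 7, as Mmp12 was. Timp1, an inhibitor of metalloproteases, had 5.04, 140, 318 and 94.2 CPM and was highest at day 3.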

How the data were processed

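The deposited files were raw UMI counts per gene and spot that the authors made with 10x Genomics pipelines. Headers name Space Ranger 1.2.0, the labels also cite Cell Ranger 5.0.0, and the build is mm10 per the submitters' processing notes. All 10835 spots entered the levels and regions, those of at least 2000 UMIs the spot comparisons, and no doublet caller was run. Images, spot positions and single-cell data were not used. The members, lists and tests were chosen with earlier results of these data known.

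Counts were summed per section and divided by its total, with exact Poisson intervals, conditional binomial intervals for ratios and Clopper-Pearson intervals for shares. Features entered a comparison with at least 20 UMIs in both sections together, and values under 3 UMIs were entered at 3. Spots were thinned without replacement in 20 draws. Leiden regions used 2000 variable genes, 30 components, 15 neighbours and a resolution of 0.5. Named genes were the members, the list genes, the 5 genes most correlated with a member and leading genes of regions. Of 236 list genes 235 had a row, and 1 is not reported here by name. The other settings were TMM, DESeq2 size factors, totals that leave out myofibre, haemoglobin and mitochondrial genes, deeper spots, other thinning depths, other marker lists, other shares of rich spots and resolution 1. Code was tested on simulated data. Scaling factors came from edgeR 4.0.16 and DESeq2 1.42.0 in R 4.3.3, regions from Scanpy 1.11.5, and intervals from SciPy 1.17.1 under Python 3.11.15.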

Additional observations from a re-analysis of the deposited data

Results flagged for a closer look

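Spp1, Gpnmb and Mmp12 lay on opposite sides of the same comparison at days 3 and 7, and the difference between the days was not tested, since each day is 1 section. The resident macrophage list also holds Mrc1 and Cd163. In spots rich in that list, the ratio to the other spots was 3.53 at day 3 and 0.369 at day 7 for Spp1. It was 2.15 and 0.356 for Gpnmb, and 4.69 and 0.0753 for Mmp12. In spots rich in MSC (mesenchymal stem cell) genes it was 2.16 and 0.474 for Spp1 and 2.97 and 0.0815 for Mmp12. In spots rich in regenerating muscle genes it was 0.427 and 28.0 for Mmp12. These are the cases with at least 2-fold in each direction among the members and marker lists.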

How the results depend on the processing

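No paired analysis was possible because each day had 1 section. The depth of the day 1 section and the few spots that hold Spp1, Gpnmb and Mmp12 at day 7 limit those values, and the causes of the changes below were not tested.

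The median log2 ratio to day 0 over the 9 genes, 2.24, 4.52 and 3.05 at days 1, 3 and 7, was 2.03, 3.98 and 2.45 with TMM, 2.05, 3.97 and 2.42 with DESeq2 size factors, and 2.09, 4.15 and 2.80 with totals that leave out myofibre, haemoglobin and mitochondrial genes. Leaving out the 1% of spots richest in Spp1, which was chosen after seeing the data, gave 2.96 for day 7. The number of genes at least 2-fold above day 0 at day 7 was 5 in place of 8 with TMM and 5 with DESeq2 factors. The median per monocyte/macrophage UMI at days 1, 3 and 7 was -0.13, 0.051 and 0.71 without C1q genes and -0.16, 0.65 and 1.03 with 3 markers, so day 1 changed sign. The median share of spots (17.3%, 30.7% and 15.1%) was 13.98%, 18.8% and 8.12% at 1000 UMIs, 20.4%, 46.2% and 26.5% at 4000, and 34.2%, 77.7% and 51.8% unthinned. In macrophage-rich spots the median ratio was 2.77 and 4.20 at days 3 and 7 for the top 5%. For the top 20% it was 1.67, 2.98, 3.44 and 3.65 at days 0, 1, 3 and 7, and with that reduced total 2.46 and 3.31 at days 3 and 7. The median rho (0.19, 0.37 and 0.15) was 0.11, 0.26 and 0.10 at 1000 UMIs, 0.24, 0.49 and 0.22 at 4000, and 0.10, 0.15 and 0.069 given adult myofibre RNA. At resolution 1 the highest region for Spp1 had 1004, 5284 and 466 CPM at days 1, 3 and 7. With a 4-fold bar the pathway genes higher than day 0, counted once per list, were 25 in place of 41 at day 1 and 24 in place of 51 at day 7. No single gene changed the sign of its log2 ratio to day 0 under TMM or without the spots richest in Spp1.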
